A study of Rattus norvegicus with 6 samples.

Results

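The genes described here are 9 transcription factors and transcriptional co-activators known for setting and keeping the hair cell (HC) fate in the inner ear: Atoh1, Pou4f3, Gfi1, Lhx3, Barhl1, Rfx1, Rfx3, Eya1 and Tbx2. They were found by their symbols in the table of gene counts, which held 1 row for each of the 9 among 32883 rows in all. Expression was measured by RNA-seq in the vestibular sensory epithelium of 6 Long-Evans rats. The 3 Control rats (2 males and 1 female) received the vehicle, PBS, and the 3 STREP rats (2 males and 1 female) received the aminoglycoside antibiotic streptomycin at 500 mg/kg by subcutaneous injection, once daily over 6 weeks, beginning at postnatal day 21. Each library came from a single animal whose utricles and cristae had been pooled, so organs of the same animal cannot be told apart. The RNA is that of whole tissue, and fewer HCs and less RNA per HC cannot be told apart in these values. The libraries are called replicates 1, 2 and 3 of each group, with the female as replicate 3.

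HCs are the mechanosensory cells of the vestibular organs. ATOH1 is a basic helix-loop-helix (bHLH) activator that starts HC differentiation in a progenitor. POU4F3, GFI1 and BARHL1 act after it, and loss of any of them in mice leads to degeneration of HCs that had already formed. GFI1 is a zinc finger repressor that keeps neuronal genes off in HCs. LHX3 is a LIM homeodomain factor made by HCs, RFX1 and RFX3 are winged helix factors needed for survival of auditory HCs, EYA1 is a transcriptional co-activator that acts upstream of Atoh1, and TBX2 is a T-box repressor that sets the inner against the outer HC fate in the cochlea.

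Library totals ran from 48568191 to 59906048 counts in Control and from 29333584 to 33744909 in STREP, so the groups differed in depth with no overlap. The part of depth in the results was not tested. Values below are normalised counts, which are counts divided by a size factor per library. Fold changes compare STREP with Control, and a gene was called higher or lower when its DESeq2 adjusted p was under 0.05 and its fold change exceeded 1.5. Transcript lengths were not used here, so levels are compared between groups for a gene and not between genes.

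Of the 9 factors, 2 were called higher in STREP (Gfi1 and Tbx2) and 0 were called lower. Among all 16250 genes tested, 304 (1.87%) were called higher and 223 (1.37%) lower. On the adjusted p alone, with no threshold of fold change, Gfi1 and Tbx2 were again the 2 factors that passed, against 2.1% of all genes higher and 1.62% lower. The median log2 fold change of the 9 factors was 0.13, against 0.0069 over all genes tested. The 7 factors that were not called had log2 fold changes from -0.30 (Lhx3) to 0.40 (Atoh1), and only the 2 that were called had an unadjusted p under 0.05. The tissue label was checked against 24 HC markers, all of which had counts, and 9 of these were called lower with 0 called higher (edgeR called 6 lower and 0 higher). Some of the markers were named by the study from these same libraries, so that count is not independent evidence of their direction.

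**Figure D1:**
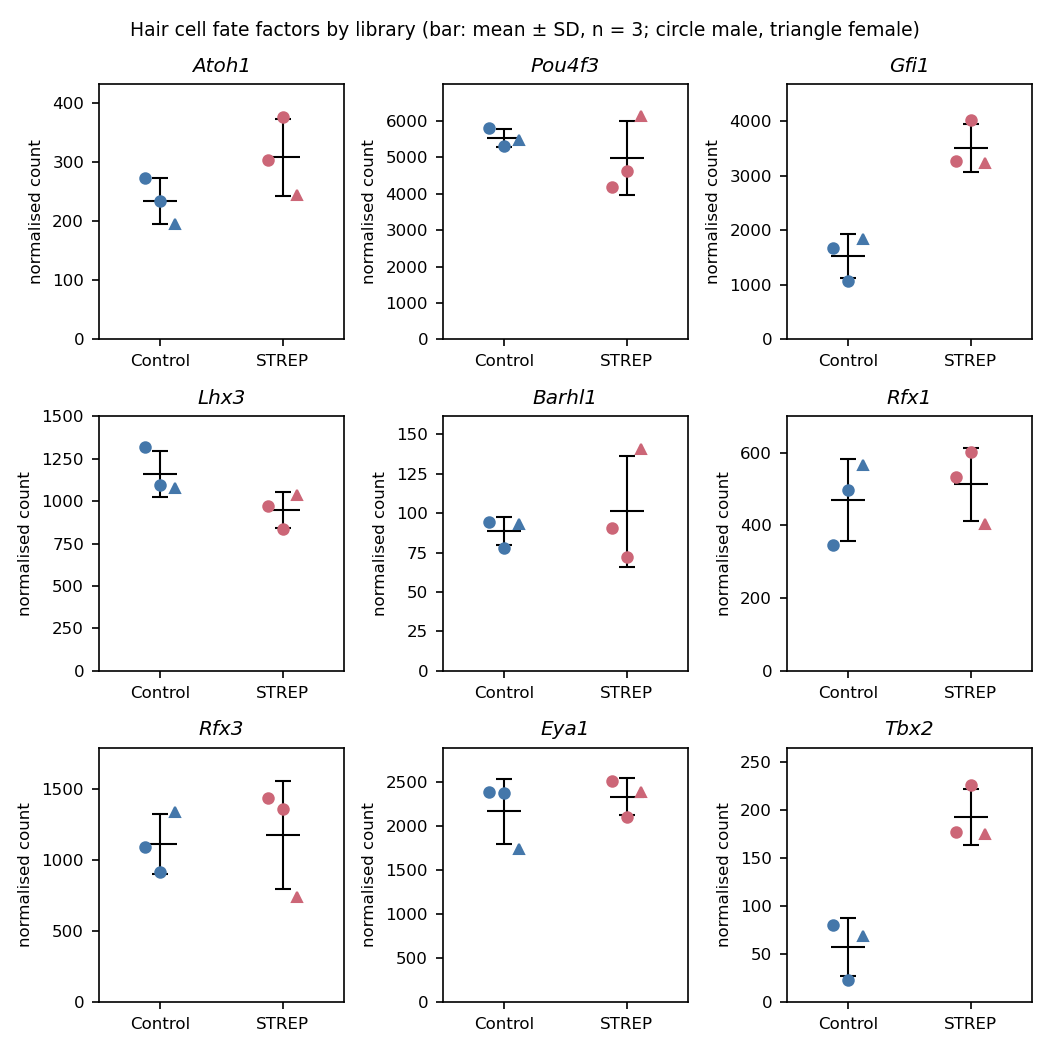
Normalised count (y axis, linear, from 0) of each of the 9 factors in the 3 Control and 3 STREP libraries, with circles for males, triangles for females and bars for the mean and SD. The groups do not overlap for Gfi1 and Tbx2, which were called higher in STREP. They do not overlap for Lhx3 either, with lower values in STREP, but Lhx3 was not called. Of all genes tested, 9.12% have STREP values all above and 8.63% all below the Control values.

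Gfi1 was the factor with the clearest difference. In order of replicate number, its normalised count was 1666, 1065 and 1843 in the Control animals and 3259, 4021 and 3234 in the STREP animals. Every STREP library was above every Control library, by a wide margin. The mean rose from 1525 ± 408 to 3505 ± 447 (SD, n = 3), a fold change of 2.30 (log2 1.20 ± 0.21 SE, 95% interval 0.79 to 1.62, DESeq2 adjusted p = 2.37e-06). By adjusted p, Gfi1 ranked 100 of the 16250 genes tested. The edgeR quasi-likelihood test also called it (log2 fold change 1.20, adjusted p = 0.0134). It was the only factor called by edgeR, which called 138 of 14928 genes (0.924%) higher. Leaving out each animal in turn gave log2 fold changes from 1.00 to 1.36, all called. The lowest of these came without Control replicate 2, which had the lowest Gfi1 of all 6 libraries. When the threshold of 1.5 was placed inside the Wald test, which asks whether the fold change itself exceeds it, Gfi1 was not called (adjusted p = 0.506).

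The RefSeq promoter table (build GRCr8) held the window of 250 bases before to 50 after the start site for 6 of the 9 factors: Atoh1, Pou4f3, Gfi1, Lhx3, Rfx1 and Rfx3. The Gfi1 window is shown because Gfi1 was the factor with the clearest difference and because GFI1 is known to bind its own promoter. It lies at chr14:2187099-2187398 on the plus strand. Capitals mark the 2 matches to AATC, the core of the GFI1 site, both on the reverse strand (GATT), which begin 90 and 35 bases before the start site.
Gfi1: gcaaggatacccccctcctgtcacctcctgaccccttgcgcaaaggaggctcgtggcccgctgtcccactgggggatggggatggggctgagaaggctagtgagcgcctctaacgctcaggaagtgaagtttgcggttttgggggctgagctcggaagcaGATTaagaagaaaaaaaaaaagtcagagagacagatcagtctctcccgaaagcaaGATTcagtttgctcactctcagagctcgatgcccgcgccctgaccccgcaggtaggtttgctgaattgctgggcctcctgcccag
A core of this length is common, and 75.2% of the 33469 windows in the table held it on either strand, as did all 6 windows of the factors. A match does not say whether GFI1 bound there in these animals.

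Tbx2 had low counts and the largest fold change of the 9. Its normalised count was 80.4, 23.8 and 68.8 in Control and 177, 227 and 175 in STREP. The groups did not overlap, and Control replicate 2 was well under the other Control libraries. These values rest on 131, 28 and 80 reads in Control and 133, 210 and 117 reads in STREP. The mean rose from 57.7 ± 29.9 to 193 ± 29.3 (SD, n = 3; log2 fold change 1.74 ± 0.46 SE, 95% interval 0.84 to 2.64, DESeq2 adjusted p = 0.00726). The call was lost under more settings than that of Gfi1. It was lost with the threshold of 1.5 inside the Wald test. With edgeR, the size was nearly the same but the gene was not called (log2 fold change 1.73, adjusted p = 0.106), and neither was it called among males alone (1.95, adjusted p = 0.0718), without STREP replicate 1 (1.80, adjusted p = 0.0501) or without STREP replicate 2 (1.60, adjusted p = 0.0931). Without Control replicate 2 the log2 fold change was 1.37 and still called. In the GRCr8 annotation, Tbx2 overlaps an uncharacterised protein-coding gene. The strand of that gene was not examined, and the counts rest on the Rnor6.0 annotation. Because the libraries did not keep strand, reads of overlapping genes on opposite strands could not be told apart.

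**Figure D2:**
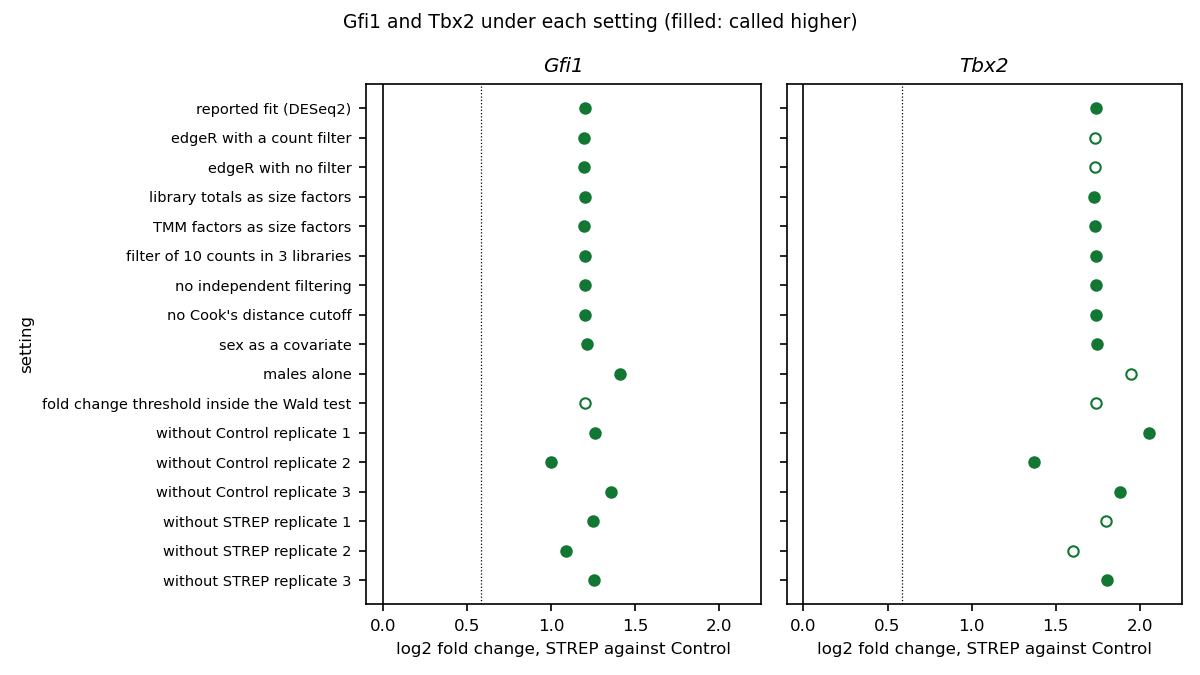
Log2 fold change of Gfi1 and Tbx2, STREP against Control (x axis), under the reported fit and each alternative setting (y axis), with filled points where the gene was called higher and a dotted line at a fold change of 1.5. Gfi1 lies between 1.00 and 1.41 and Tbx2 between 1.37 and 2.06, and Tbx2 has open points under more settings.

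Of the factors that begin HC differentiation, Atoh1 and Eya1 were not called. Atoh1 was at 274, 235 and 195 in Control and 304, 377 and 245 in STREP. The groups overlapped only through STREP replicate 3, which lay below Control replicate 1. Its log2 fold change was 0.40 ± 0.28 SE (95% interval -0.15 to 0.94, DESeq2 adjusted p = 0.664). Eya1 was at 2389, 2371 and 1742 in Control and 2512, 2108 and 2384 in STREP, with values that overlapped. Its log2 fold change of 0.11 had a 95% interval of -0.23 to 0.45, which lies within a fold change of 1.5 in either direction (DESeq2 adjusted p = 0.921). In the GRCr8 annotation, Eya1 overlaps a long non-coding RNA gene.

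Pou4f3, Barhl1 and Lhx3 are the factors of the forming and mature HC. Pou4f3 was at 5800, 5302 and 5470 in Control and 4183, 4630 and 6138 in STREP. In these normalised counts, both STREP males were below every Control animal and the STREP female was above them. That order depends on the scaling. The STREP female had the lowest size factor of all libraries (0.668) but the highest STREP library total (33744909). In CPM (reads scaled to a common library total), Pou4f3 was at 158, 128 and 130 in Control and 107, 135 and 122 in STREP. There the STREP female was below every Control animal, and STREP replicate 2 was above Control replicates 2 and 3. In the reported fit, the log2 fold change was -0.15 ± 0.17 SE (95% interval -0.48 to 0.18, DESeq2 adjusted p = 0.851), an interval that lies within a fold change of 1.5. Barhl1 was at 94.5, 78.2 and 92.9 in Control and 90.5, 72.3 and 141 in STREP, with the highest value again in the STREP female (log2 fold change 0.19 ± 0.41 SE, DESeq2 adjusted p = 0.956). The interval for Barhl1, -0.62 to 0.99, is wide at this depth of 67 to 154 reads.

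Lhx3 was the factor with the lowest fold change. Its normalised count was 1316, 1093 and 1075 in Control and 973, 834 and 1037 in STREP. The groups did not overlap, but the highest STREP value was close to the lowest Control value. Its mean was 1162 ± 134 in Control and 948 ± 104 in STREP (SD, n = 3; log2 fold change -0.30 ± 0.18 SE, 95% interval -0.64 to 0.05, DESeq2 adjusted p = 0.540). Of all genes tested, 8.63% had STREP values all below the Control values and 9.12% had them all above, so a lack of overlap was common in these 6 libraries.

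Rfx1 and Rfx3 belong to the family of regulatory factor X proteins, which bind the X-box in promoters of ciliary and other genes. Rfx1 was at 345, 497 and 565 in Control and 533, 600 and 404 in STREP, and Rfx3 was at 1092, 917 and 1335 in Control and 1434, 1357 and 742 in STREP. Neither was called, with log2 fold changes of 0.13 ± 0.26 SE for Rfx1 (DESeq2 adjusted p = 0.947) and 0.08 ± 0.26 SE for Rfx3 (DESeq2 adjusted p = 0.974). In both genes the STREP female had the lowest STREP value and the Control female the highest Control value. In the GRCr8 annotation, both genes overlap non-coding genes or pseudogenes.

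The promoter windows of Rfx1 and Rfx3 are shown because they were the only 2 of the 6 windows to hold an X-box element, GTTGCC, searched on both strands. The Rfx1 window is chr19:40996760-40997059 and the Rfx3 window chr1:235122373-235122672, both on the minus strand and printed in the direction of the gene. Capitals mark the element, which begins 28 bases before the start site in Rfx1 and 118 bases before it in Rfx3.
Rfx1: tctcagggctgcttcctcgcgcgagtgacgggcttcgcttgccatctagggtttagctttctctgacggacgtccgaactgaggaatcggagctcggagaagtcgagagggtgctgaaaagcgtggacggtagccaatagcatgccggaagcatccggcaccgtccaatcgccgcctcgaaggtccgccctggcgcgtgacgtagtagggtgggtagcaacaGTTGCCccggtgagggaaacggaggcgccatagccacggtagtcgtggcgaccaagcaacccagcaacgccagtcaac
Rfx3: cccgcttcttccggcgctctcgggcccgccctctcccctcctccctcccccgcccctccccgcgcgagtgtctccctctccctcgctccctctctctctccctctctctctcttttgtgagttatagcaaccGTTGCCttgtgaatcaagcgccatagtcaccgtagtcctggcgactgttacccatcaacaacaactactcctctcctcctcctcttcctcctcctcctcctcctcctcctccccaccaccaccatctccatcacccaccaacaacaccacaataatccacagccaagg
Of all 33469 windows, 12.2% held this element. None of the 6 windows held the E-box CAGCTG (15.1% of all windows), the E-box CAGATG (16.6%) or the T-box element AGGTGTGA (1.10%). These matches describe the letters of the windows and no binding was measured.

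**Figure D3:**
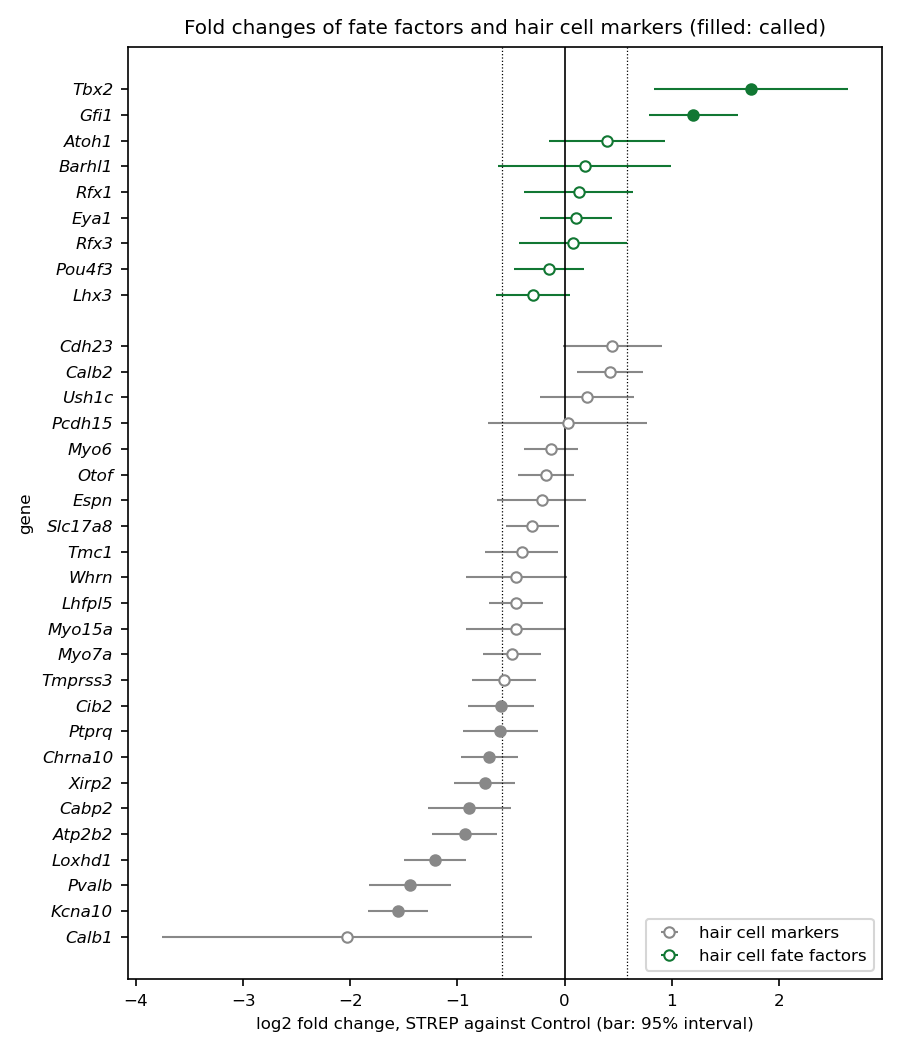
Log2 fold change, STREP against Control, with its 95% interval (x axis) for the 9 factors (green) and 24 HC markers (grey), filled where called, with dotted lines at a fold change of 1.5 in either direction. The factors lie from -0.30 to 1.74 and the markers from -2.03 to 0.45, with 9 filled markers, all lower.

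The factors were then set against the genes of the mature HC. The 24 HC markers had a median log2 fold change of -0.47, and 20 of the 24 were below 0. The 9 called lower were Kcna10 (-1.56), a potassium channel; Pvalb (-1.44), a calcium buffer; Loxhd1 (-1.21), a stereocilia protein; Atp2b2 (-0.93), the calcium pump of the hair bundle; Cabp2 (-0.89); Xirp2 (-0.75); Chrna10 (-0.70), a subunit of the efferent acetylcholine receptor; Ptprq (-0.60); and Cib2 (-0.59), a partner of the transduction channel. Myo7a, the myosin used to count HCs, fell by 0.49 on the log2 scale (DESeq2 adjusted p = 0.0162), as did Tmprss3 by 0.56 and Lhfpl5 by 0.45, which passed the adjusted p but not the fold change. With edgeR none of these 3 passed (adjusted p = 0.0923 for Myo7a, 0.0674 for Tmprss3 and 0.0946 for Lhfpl5). The Ptprq and Cib2 calls were lost with edgeR, with library totals as size factors, among males alone and with the threshold inside the Wald test. Leaving out 1 animal also ended the Ptprq call for Control replicates 2 and 3 and STREP replicates 1 and 2, with log2 fold changes from -0.47 to -0.64. For Cib2 it did so for Control replicate 1 and STREP replicates 1 and 3 (-0.51 to -0.56). The Cabp2 call was lost with edgeR and a count filter (edgeR adjusted p = 0.0501) but kept with no filter (edgeR adjusted p = 0.0330). With the threshold inside the Wald test, the calls of Atp2b2, Cabp2, Xirp2 and Chrna10 were lost as well. Otof and Ush1c, the markers with the highest mean normalised count over all 6 libraries, had log2 fold changes of -0.17 and 0.21 and were not called.

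Each factor was also expressed as a ratio to Myo7a within the same library, which does not depend on scaling between libraries. The lower Myo7a level of the STREP libraries raises the ratio of every gene by the same amount in a given library, so 45.8% of the other 16249 genes tested had ratios that were all higher in STREP than in Control. The mean difference in log2 ratio was 2.40 for Tbx2, 1.72 for Gfi1, 0.87 for Atoh1, 0.61 for Eya1 and 0.32 for Pou4f3. For these 5 of the 9 factors the groups did not overlap (exact two-sided permutation p = 0.1 each, the smallest possible with n = 3, and 0.18 after Benjamini-Hochberg adjustment over the 9 ratios), a share near that of all genes. The groups overlapped for Barhl1 (0.63), Rfx1 (0.63), Rfx3 (0.53) and Lhx3 (0.20), with exact permutation p from 0.2 to 0.4. Myo6, another HC myosin, had a log2 fold change of -0.13, and 14% of the other genes tested had ratios to it that were all higher in STREP. Relative to Myo6, the groups did not overlap for Gfi1 (1.37) and Tbx2 (2.05) alone, and the differences of Pou4f3 (-0.032) and Lhx3 (-0.16) were below 0.

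**Figure D4:**
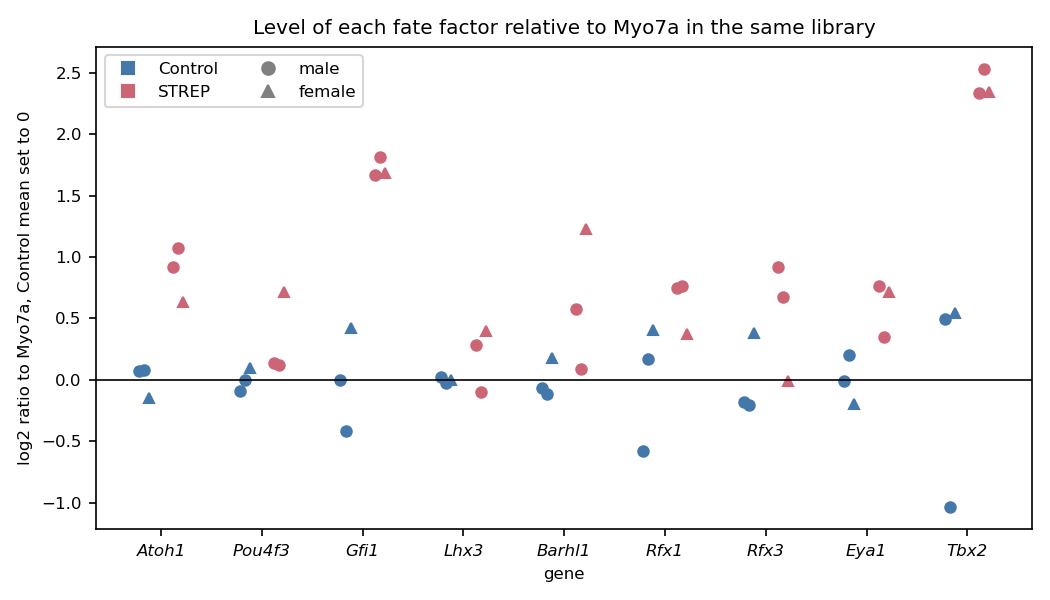
Log2 ratio of each factor to Myo7a in the same library (y axis), shifted so that the Control mean of each gene is 0, with blue for Control, red for STREP, circles for males and triangles for females. The 3 STREP points lie above the 3 Control points for Atoh1, Pou4f3, Gfi1, Eya1 and Tbx2, as they do for 45.8% of all other genes tested.

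The difference between the sexes was examined because both groups held males and a female. For Rfx3, the log2 difference between STREP and Control was 0.48 in males (n = 2 per group) and -0.85 in females (n = 1 per group). The sex by treatment term was -1.32 ± 0.39 SE (DESeq2 unadjusted p = 0.00076), but its adjusted p over 13134 genes was 0.161, and edgeR gave an adjusted p of 0.867. Rfx1 had the same pattern of signs, with 0.45 in males and -0.48 in females (DESeq2 adjusted p of the difference 0.999). Pou4f3 had the opposite one in this fit, with -0.33 in males and 0.17 in females. The positive value in females depends on the size factor of STREP replicate 3, the lowest of all libraries (0.668). In CPM, Pou4f3 was at 130 in the Control female and 122 in the STREP female, so the sign in females was then negative. Gfi1 was higher in STREP in both sexes, by 1.44 in males and 0.81 in females, and Tbx2 by 2.20 and 1.35. None of the 9 factors passed the adjusted test of this difference, and it rests on 1 female per group.

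Relatives of the factors were read from the same fit. Of 22 family members (other ATOH, POU4, GFI, LHX, BARHL, RFX, EYA and TBX genes), 14 were tested and 1 was called higher. The share called higher over all genes tested was 1.87%. Tbx1, a T-box factor needed for inner ear development, was at 557, 469 and 439 in Control and 968, 1324 and 915 in STREP, and the groups were well apart. Its log2 fold change was 1.13 ± 0.21 SE (DESeq2 adjusted p = 1.29e-05). Tbx3, the relative closest to Tbx2, was at 1823, 1589 and 1525 in Control and 1596, 1766 and 1844 in STREP and was not called (0.08). Rfx2 (0.02) was not called either. Pou4f1, Lhx2, Lhx4, Barhl2 and Tbx5 had 0 counts in all 6 libraries, where 3 counts correspond to between 0.0501 and 0.102 CPM (reads scaled to a common library total).

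Of 26 partners and cofactors in the table, 25 were tested and 3 were called higher, against 1.87% of all genes tested. Id4, an inhibitor of bHLH factors, had the largest fold change of these 3. Its normalised count was 2897, 1318 and 2583 in Control and 8032, 7793 and 14266 in STREP. Its log2 fold change was 2.15 ± 0.29 SE (DESeq2 adjusted p = 2.35e-11), and it was called under all 16 alternative settings. Id1 (-0.22), Id2 (-0.55) and Id3 (-0.22), which inhibit the same class of factors and were looked at after their values were seen, were not called. Hdac2, a histone deacetylase found in GFI1 repressor complexes, was at 2621, 1932 and 2424 in Control and 4737, 5363 and 4887 in STREP (log2 fold change 1.10, DESeq2 adjusted p = 6.32e-10). Rfxap, a subunit of another RFX complex that was also looked at after its values were seen, had 0 counts in every Control library and 419, 170 and 0 normalised counts in STREP, and was not called (DESeq2 adjusted p = 0.138). Hdac1, the close paralogue of Hdac2, was not called (0.0081). Six4, a partner of EYA proteins, was at 2350, 1562 and 1815 in Control and 2829, 3295 and 3097 in STREP (0.69, DESeq2 adjusted p = 0.0065). The Six4 call was lost with edgeR, with library totals as size factors, among males alone, with the threshold inside the Wald test, and without Control replicate 2, Control replicate 3 or STREP replicate 2. Tcf4 (0.08), a bHLH partner of ATOH1, was not called. As for Gfi1 and Tbx2, Control replicate 2 was the lowest of the 6 libraries for Id4, Hdac2 and Six4. How often that library was the lowest over all genes was not examined.

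**Figure D5:**
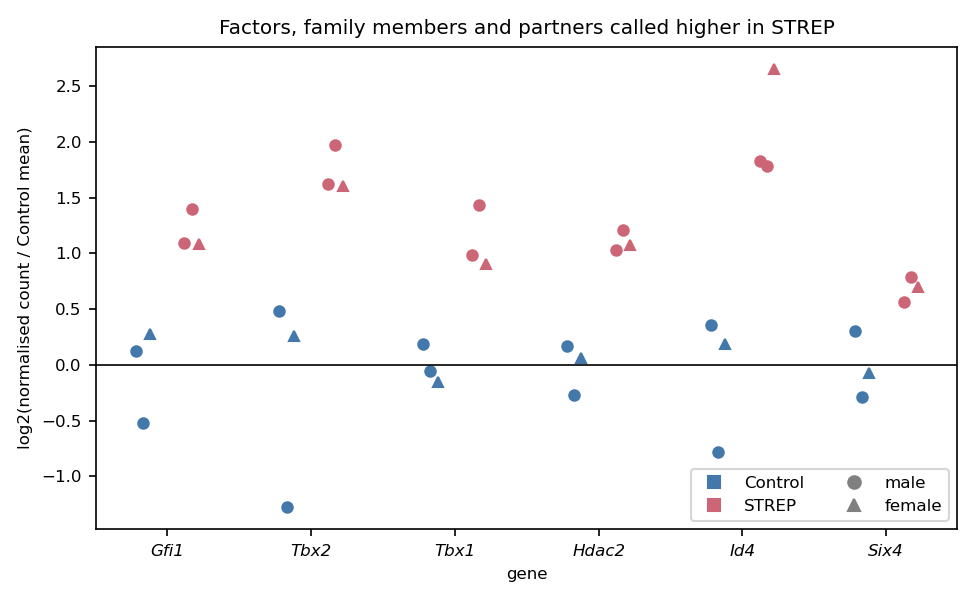
Log2 of the normalised count over the Control mean (y axis) in each library for the 2 factors, the family member and the 3 partners called higher in STREP, with circles for males and triangles for females. The STREP points lie above all Control points for each of the 6 genes, as they do for 9.12% of all genes tested. The 6 were picked because they were called higher in these same libraries, which favours such a separation. Control replicate 2 is the lowest point for 5 of them, Tbx1 being the exception.

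The list of reported targets of ATOH1 or POU4F3 held 16 genes, all tested, of which 1 was called higher and 1 lower. Over all genes tested, 1.87% were called higher and 1.37% lower. The gene called higher was Gfi1 itself. Bdnf, a neurotrophin made by HCs, was called lower, with 4897, 4980 and 5786 in Control and 2624, 2751 and 3049 in STREP (log2 fold change -0.89 ± 0.14 SE, DESeq2 adjusted p = 3.32e-08). Anxa4 (0.04) and Caprin1 (0.15), the targets with the highest mean normalised count over all 6 libraries, were not called. Lhx3, Barhl1 and Pou4f3 are also on this list. Of 20 other inner ear transcription factors in the table, 15 were tested and 0 were called by DESeq2, with 1 at an unadjusted p under 0.05, and edgeR also called 0. Sox9 (0.37), a supporting cell factor, was among those not called.

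Markers of the other cells of the tissue were measured beside the factors. The summed level of 24 HC markers was 5830 to 6050 CPM in Control and 4420 to 5133 CPM in STREP. The summed level of 10 supporting cell markers was 15029 to 16329 CPM in Control and 18429 to 22360 CPM in STREP, without overlap. Most of that sum was Otog alone, at 9112 to 9741 CPM in Control and 11578 to 14452 CPM in STREP, and the mean log2 level of the 10 overlapped between groups (13.5 to 13.7 in Control and 13.6 to 14.0 in STREP). None of the 10 was called, among them Otog (0.50), Otoa (0.44) and Gjb6 (-0.08), the last of which was looked at after its values were seen. Of 8 Schwann cell markers, Prx (-0.68) was called lower and Sox10 (0.95) higher, and Mbp (-0.59) was not called. Of 8 neuron markers, Tubb3 (1.28) was called higher, with Nefl (-0.29) and Nefm (-0.17) not called. None of 8 macrophage markers (C1qb 0.47, Csf1r 0.06), 5 melanocyte markers (Pmel 0.29, Mitf -0.06, and 3 chosen after their values were seen, Tyr -1.06, Tyrp1 -1.25 and Mlana -0.96), 8 connective tissue markers (Dcn -0.45, Pdgfra 0.11) or 2 blood markers (Hbb -0.56, Alas2 -0.24) was called. At an unadjusted p under 0.05, 3 of the supporting cell, 2 of the macrophage, 2 of the melanocyte (Tyr and Mlana, both with negative fold changes), 2 of the connective tissue and 0 of the blood markers passed, and edgeR called 0 in each of these lists. The share of all genes at that unadjusted p was not taken, so these counts were not set against the whole table. The Prx and Tubb3 calls were also absent with edgeR. DESeq2 called 1.87% of all genes tested higher and 1.37% lower. Of 6 dark cell markers, Slc12a2 (-0.55, DESeq2 adjusted p = 0.0035) passed the adjusted p but not the fold change, and Atp1b2 (-0.36) did not pass. The part of these cells in the values of Gfi1, Tbx2, Tbx1 and Id4 was not tested.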

How the data were processed

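Libraries were prepared with the SMARTseq2 protocol, which does not keep strand. The authors aligned reads to the rat genome (Rnor6.0, annotation Rnor6.0.92) with STAR (2.5.3a in the submitters' processing notes), quantified genes with RSEM (1.3.0) and deposited a table of expected counts, which RSEM estimates for each gene. These held 0 values that were not whole, so no rounding was needed. RSEM divides reads among similar genes, so values of near-identical copies are uncertain. Groups came from the sample labels, and replicates were numbered in order of deposition. No batch was entered in the fits. The p-values set the difference between the groups against the spread between these 6 rats. The sample titles of STREP replicates 1 and 2 share a number that no other title has. What that number stands for is not stated, and it was not entered in the fits.

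All genes were fitted in R 4.3.3 with DESeq2 1.42.0 (group only, Wald test, Benjamini-Hochberg adjustment over all genes tested). A call needed an adjusted p under 0.05 and a fold change over 1.5. Ratios were compared with exact permutation tests (SciPy 1.17.1). edgeR 4.0.16 quasi-likelihood tests, other scalings, filters and thresholds, sex as a covariate, males alone and leaving out each animal were the alternatives. edgeR on the adjusted p alone was added after seeing the data. The floor of 3 counts covers counting error only, because PCR reads that carry no molecular identifier may copy 1 molecule.

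The 9 factors, gene lists and motifs were chosen with earlier results of these data known. Named genes were all factors, and from each other list every gene with adjusted p under 0.05 and the 2 with the highest mean normalised count over all 6 libraries (some genes under this rule are not reported here). For Atoh1, Pou4f3 and Gfi1, the 3 genes with the most similar pattern were also named, by the root mean square distance of centred log2(normalised count + 1) over 6 libraries among genes with a mean of at least 100. Gene symbols were used as deposited, and 3970 rows repeat a symbol. Promoter windows are from RefSeq (GRCr8), and no coordinates of the Rnor6.0 build were used.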

Additional observations from a re-analysis of the deposited data

How the results depend on the processing

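Over the 9 factors, 128 of 144 log2 fold changes under alternative settings kept both the direction and the call of the reported fit, 7 lost the call and 9 changed sign. The 9 that changed sign were all of genes that were not called. Among males alone, Barhl1 was at -0.089 and Eya1 at -0.045. Leaving out each animal in turn gave -0.12 to 0.38 for Barhl1, -0.055 to 0.29 for Rfx1, -0.084 to 0.33 for Rfx3 and -0.028 to 0.18 for Eya1.

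The number of factors called higher fell from 2 to 1 with edgeR (with a filter, without it, or on the adjusted p alone), among males alone, and without STREP replicate 1 or 2, and in each of these it was Tbx2 that was lost. It was 0 with the threshold of 1.5 inside the Wald test, and 1 to 2 when each animal was left out. Under that stricter test the counts were 0 called higher among family members, 1 among partners, 0 higher and 0 lower among reported targets, and 3 lower among HC markers. Over all genes, 223 lower and 304 higher became 126 and 138 with edgeR and a filter, 135 and 160 with edgeR and no filter, 139 and 170 with library totals as size factors, 35 and 47 with the threshold inside the Wald test, and 128 and 141 with edgeR on the adjusted p alone. Leaving out each animal gave 178 to 251 lower and 222 to 322 higher. A similar tally covered family members, partners, reported targets and HC markers, but only genes with an adjusted p under 0.05 in the reported fit. The factors and the remaining named genes were left out of it. Of its 272 values, 0 changed sign, 237 kept the call of the reported fit, 33 lost it and 2 gained it. Selection on the adjusted p favours a stable sign, so this tally cannot be set against that of the factors. The largest shift that a scaling gave to the median of all genes was -0.0136 (log2), with library totals.

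No paired analysis was possible because the replicate numbers were given in order of deposition and pair no animals. With 3 animals per group, exact permutation tests cannot go below 0.1. Tbx2 and Barhl1 rest on at most 210 and 154 reads per library, and every STREP library was shallower than every Control library.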

Other observations

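The genes whose pattern over the 6 libraries lay closest to that of a factor were sought among 12130 genes whose normalised count averaged 100 or more. The measure was the root mean square distance on the log2 scale after centring, over only 6 libraries that share the same depth difference, so it describes likeness and carries no test. For Gfi1 the closest were Rfwd2 (distance 0.118), an E3 ubiquitin ligase also called COP1, Fzr1 (0.119), an activator of the anaphase-promoting complex, and Tbc1d20 (0.135), a GTPase-activating protein. All 3 were called higher in STREP, with log2 fold changes of 1.07, 1.05 and 1.15. They were picked for likeness to Gfi1, itself called higher, in these same libraries, which favours a shared call. For Atoh1 the closest were Blvrb (0.0588), biliverdin reductase B, AABR07063855.1 (0.0744) and Abcc9 (0.0759), a subunit of ATP-sensitive potassium channels. None of these 3 was called, with log2 fold changes of 0.37, 0.36 and 0.42. For Pou4f3 the closest were Nipsnap2 (0.0400), Mdk (0.0460), a heparin-binding growth factor, and Slc25a29 (0.0577), a mitochondrial carrier, at -0.16, -0.11 and -0.10, of which none was called.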
